A study of Homo sapiens with 6 samples.

Results

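The replacement histones and histone variants considered in this RNA-seq comparison are 9 genes, namely H3-3A, H3-3B, H2AZ1, H2AZ2, H2AX, H2AJ, MACROH2A1, MACROH2A2 and H1-10. The genes were chosen by their symbols, with the counts of the same NC and siEIF1 libraries already known from earlier results, so their fold changes and adjusted p-values describe them and are not independent evidence. All 9 were among the 30618 genes of the count table, and all 9 were among the 16749 genes that passed the filter on low counts. The lowest group mean of a member was 191 counts, for H2AJ in the NC group. All libraries were made from ARPE-19, an established line of human cells of the retinal pigment epithelium, kept in 50 mM glucose as a model of diabetic retinopathy. The NC group received a non-targeting control siRNA and the siEIF1 group received an siRNA against EIF1, a translation initiation factor that helps the ribosome to select the start codon, and both siRNAs were delivered by transient lipid transfection. Each group had 3 libraries, which the study's methods call independent biological replicates, and none came from cells in normal glucose. Poly(A) RNA was sequenced from both ends of the fragments, and a fall of a transcript in such bulk RNA can mean fewer cells that make it or less of it per cell, which cannot be told apart.

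The libraries held between 26499929 and 31431479 counts. FPKM are fragments scaled to a length per gene, which is described further below, and to all mapped fragments. EIF1 had an FPKM between 281 and 294 in the NC libraries and between 22.7 and 24.3 in the siEIF1 libraries. On the log2 scale EIF1 changed by -3.58 (standard error 0.055, edgeR adjusted p = 1.08e-13). Of the retinal pigment epithelium markers, BEST1, KRT8, KRT18, OTX2 and MITF had at least 1369 counts in every library. SERPINF1 had 148 to 240 and PMEL 25 to 40. The pigment enzyme genes TYR and TYRP1 had at most 15, and RPE65 was not among the genes of the count table. The 5 markers of other retinal and blood cells in the table summed to 10 to 25 counts in an NC library and 11 to 14 in an siEIF1 library. Of 8 tested retinal pigment epithelium markers, 3 rose in the siEIF1 group at an adjusted p under 0.05, and 0 fell. Over all tested genes 10.2% rose and 10.4% fell. The 3 were RLBP1 (log2 fold change 1.55, from 11 to 17 counts in NC and from 42 to 49 in siEIF1), KRT8 (0.24) and KRT18 (0.25). BEST1 had a log2 fold change of -0.32 (edgeR adjusted p = 0.106). Genes that overlap the markers, BEST1 included, were not looked up, so reads of such genes could be part of the marker counts. The reference gene GAPDH also rose, by 0.30 on the log2 scale (standard error 0.055, edgeR adjusted p = 0.00169).

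Most histone protein is made in S phase from clustered genes whose mRNAs end in a stem-loop in place of a poly(A) tail. Replacement histones and variants are made from separate genes, mostly as polyadenylated mRNAs, also outside S phase, and are placed into chromatin by their own chaperones. H3.3 replaces H3 in transcribed and in heterochromatic regions, H2A.Z sits at promoters and next to the start sites of genes, H2AX is phosphorylated beside DNA breaks, macroH2A carries a large extra domain and marks repressed chromatin, and H1-10 binds the linker DNA between nucleosomes.

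Several variants are made by a pair of genes, so the sequences of the paired mRNAs decide whether reads can be assigned to one gene. H3-3A (ENSG00000163041.13) lies on the forward strand of GRCh38 at chr1:226061851-226072019, and H3-3B (ENSG00000132475.10) on the reverse strand at chr17:75776434-75785893. Their canonical GENCODE 44 transcripts both have 4 exons and code for proteins of 136 residues that differ at 0 positions, yet their coding sequences are identical at only 323 of 411 bases. The longest run the canonical transcripts share is 14 bases, well under a read. The first 30 coding bases are shown because they carry this difference, with the bases that differ within the pair in capitals.
H3-3A: atggcTcgTacAaagcagactgcCcgCaaA
H3-3B: atggcCcgAacCaagcagactgcTcgTaaG

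H2AZ1 (ENSG00000164032.12) lies on the reverse strand at chr4:99948086-99950355 and H2AZ2 (ENSG00000105968.19) on the reverse strand at chr7:44826791-44848087. Their proteins of 128 residues differ at 3 positions, and the longest run shared by their canonical transcripts is 23 bases. The same stretch of the coding sequence is shown, again with differing bases in capitals.
H2AZ1: atggctggCggTaaGgctggaaaggacTCC
H2AZ2: atggctggAggCaaAgctggaaaggacAGT

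Of the 9 genes, 6 fell and 1 rose in the siEIF1 group, and 2 did not pass the threshold of an adjusted p under 0.05 in edgeR's quasi-likelihood test over all tested genes. Over all tested genes, 10.4% fell and 10.2% rose by the same rule. In counts scaled to library totals that were adjusted by the normalization factors of the fit, 7 of the 9 genes had groups without overlap. The same held for 37.1% of all tested genes. The median log2 fold change of the 9 was -0.34, beside 0.0033 for all tested genes. With a fold change below 0.5 required as well, 1 member was lower, H3-3B, and the share of all tested genes was 1.31%. Since the genes were chosen with this contrast known, nothing is read from these shares.

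**Figure D1:**
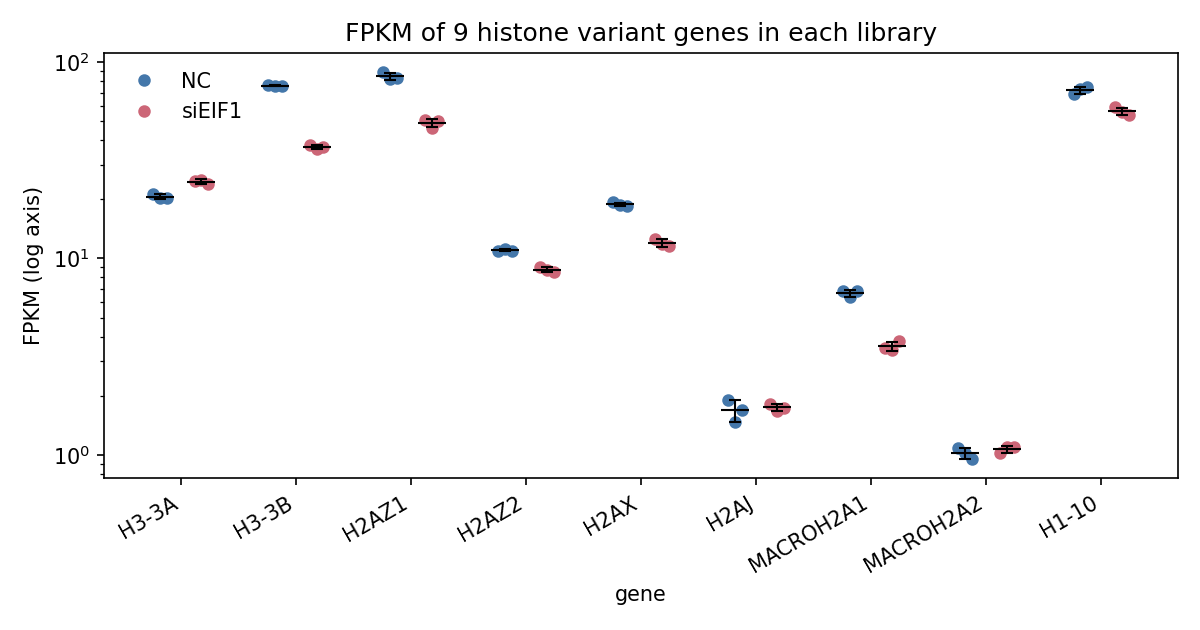
FPKM of the 9 genes on a log axis, with 1 point per library, NC in blue and siEIF1 in red, and a black bar and whiskers for the mean and SD of 3 libraries. H3-3B falls from 75.9 to 36.9 and H2AZ1 from 84.5 to 49.2, while the points of H2AJ and MACROH2A2 overlap between the groups.

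Both genes of H3.3 changed, in opposite directions. H3-3B, the more abundant in FPKM, had 76.49, 75.55 and 75.76 in NC replicates 1 to 3 and 37.68, 36.25 and 36.73 in siEIF1 replicates 1 to 3. Every siEIF1 library lay far below every NC library, at 48.6% of the NC mean, and the spread within a group was small (SD 0.493 and 0.728, n = 3). The log2 fold change of H3-3B was -1.02 (standard error 0.047, edgeR adjusted p = 5.50e-08), and the fold change was below 0.5 in all 14 alternative fits. H3-3A had an FPKM of 21.36, 20.21 and 20.43 in the NC and of 24.82, 25.17 and 23.84 in the siEIF1 libraries. Its groups also did not overlap, with the siEIF1 libraries higher, at 119% of the NC mean. The log2 fold change of H3-3A was 0.27 (standard error 0.052, edgeR adjusted p = 0.00218), which is close in size to that of GAPDH.

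The sum of both H3.3 genes fell from an FPKM of 96.6 ± 1.10 (SD, n = 3) to 61.5 ± 0.967 (SD, n = 3), which is 63.7% of the NC mean. H3-3B made up 78.6% ± 0.385 (SD, n = 3) of the H3.3 FPKM in the NC group and 60.0% ± 0.852 (SD, n = 3) in the siEIF1 group. The share was 78.2%, 78.9% and 78.8% in the NC libraries and 60.3%, 59.0% and 60.6% in the siEIF1 libraries. The groups were thus far apart, although an exact permutation test of 3 libraries against 3 cannot give a p under 0.1. On the log2 scale, the ratio of H3-3B to H3-3A FPKM went from 1.88 ± 0.033 to 0.58 ± 0.051 (SD, n = 3 each).

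Among 10 pseudogenes of H3 and H2A.Z genes, 8 had fewer than 10 counts in every library. H3P6, the copy with the most counts, shares a run of 411 bases with the canonical H3-3A transcript and of 14 bases with that of H3-3B. Reads that lie wholly inside that run match both places, and the counts were taken from reads that mapped to 1 place, so the level of H3-3A and the share of H3-3B are uncertain by the reads left out, whose number was not measured. H3P6 had 113, 146 and 151 counts in the NC and 183, 184 and 161 in the siEIF1 libraries. In CPM these values were 4.95 ± 0.607 and 5.81 ± 0.399 (SD, n = 3 each) and the groups overlapped. Low counts of the other copies do not show that their parent genes lost no reads, since reads that match several places were left out. Shared runs of the other copies, and of any copy with H2AZ1 or H2AZ2, were not measured. The levels and share of the H2A.Z genes could thus be uncertain in the same way. UNK, which overlaps the H3-3B locus on the opposite strand, had between 821 and 981 counts, against at least 8144 for H3-3B.

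**Figure D2:**
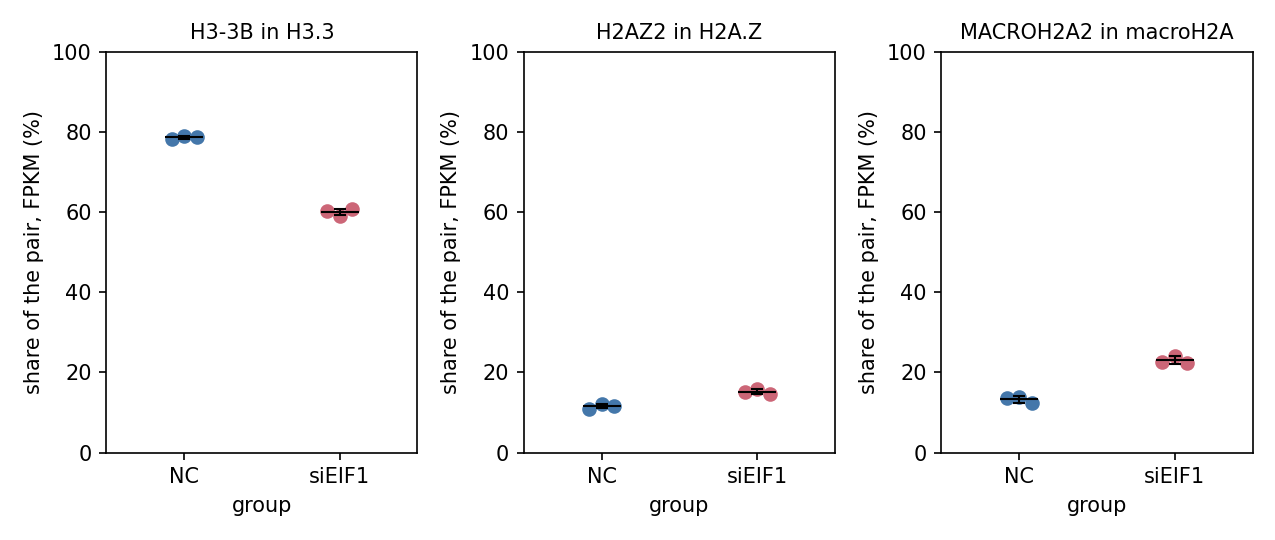
Share of H3-3B, H2AZ2 and MACROH2A2 in the summed FPKM of each gene pair, in percent, with 1 point per library and a black bar and whiskers for the mean and SD of 3 libraries. The H3-3B share drops from 78.6% to 60.0%, and the MACROH2A2 share goes from 13.3% to 23.0%.

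Both H2A.Z genes fell. H2AZ1 had an FPKM of 88.68, 81.57 and 83.19 in the NC and of 50.77, 46.41 and 50.30 in the siEIF1 libraries. The siEIF1 mean was 58.2% of the NC mean and the groups did not overlap. The log2 fold change of H2AZ1 was -0.76 (standard error 0.050, edgeR adjusted p = 6.43e-07). H2AZ2 went from 10.92, 11.15 and 10.95 to 9.08, 8.71 and 8.52, so that the siEIF1 mean was 79.7% of the NC mean, a smaller fall that also left no overlap (log2 fold change -0.31, standard error 0.050, edgeR adjusted p = 7.58e-04). The summed FPKM of the pair fell from 95.5 ± 3.63 to 57.9 ± 2.49 (SD, n = 3 each). The H2AZ2 share of that sum went from 11.5% ± 0.537 to 15.2% ± 0.659 (SD, n = 3 each), without overlap between the libraries. In CPM, which are not divided by length, the share went from 28.7% to 35.5%, a change of 6.83 percentage points in place of 3.61. The divergent transcript H2AZ1-DT, which overlaps H2AZ1 on the opposite strand, had between 47 and 95 counts.

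H2AX (ENSG00000188486.3), the variant that carries the phosphorylation mark of DNA breaks, had an FPKM of 19.33, 18.65 and 18.56 in the NC and of 12.56, 11.81 and 11.57 in the siEIF1 libraries. Its siEIF1 libraries all lay below the NC libraries, at 63.6% of the NC mean (log2 fold change -0.63, standard error 0.062, edgeR adjusted p = 1.31e-05). H2AX is intronless and lies at chr11:119093874-119095465 on the reverse strand. Its canonical transcript holds a match to the histone stem-loop consensus 50 bases after the coding sequence. The site is shown, with the stem-loop in capitals, because H2AX mRNA is known to be made both with the stem-loop as its end and as a longer poly(A) form, and the libraries were made from poly(A) RNA.
H2AX: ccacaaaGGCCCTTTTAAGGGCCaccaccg

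The match is in the canonical transcript of 1 of the 9 members, H2AX, and in 0.391% of all canonical coding transcripts. How much H2AX mRNA ended at the stem-loop was not tested, since counts per gene do not separate the ends. H2AJ (ENSG00000246705.4), a variant close to the major H2A, has a canonical transcript of 1 exon and lies at chr12:14774405-14778002 on the forward strand. Its protein of 129 residues is identical to that of H2AX at 118 of 129 aligned positions. H2AJ had an FPKM of 1.90, 1.46 and 1.69 in the NC and of 1.82, 1.68 and 1.74 in the siEIF1 libraries. These values overlap, and all siEIF1 libraries lie within the NC range (log2 fold change 0.08, standard error 0.113, edgeR adjusted p = 0.695). H2AJ had the fewest counts of the 9 genes, from 172 to 234, and the widest error.

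Of the macroH2A pair, MACROH2A1 fell and MACROH2A2 did not pass the threshold. MACROH2A1 (ENSG00000113648.16, reverse strand, chr5:135334381-135399914) had an FPKM of 6.83, 6.34 and 6.81 in the NC and of 3.48, 3.43 and 3.79 in the siEIF1 libraries. The siEIF1 mean was 53.6% of the NC mean, with no overlap (log2 fold change -0.88, standard error 0.050, edgeR adjusted p = 3.00e-07). MACROH2A2 (ENSG00000099284.15, forward strand, chr10:70052544-70112282) had 1.08, 1.02 and 0.95 in the NC and 1.02, 1.09 and 1.09 in the siEIF1 libraries. Its groups overlapped (log2 fold change 0.09, standard error 0.074, edgeR adjusted p = 0.457), so a difference in either direction of the size of its error was not detectable. AIFM2, which overlaps MACROH2A2 on the opposite strand, had between 1047 and 1321 counts, more than the 487 to 600 of MACROH2A2. The study's methods describe strand-specific libraries, but the sources used here do not say whether the counting used the strand. Reads of AIFM2 could therefore be part of the MACROH2A2 value and of its share in the pair.

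The summed macroH2A FPKM fell from 7.68 ± 0.284 to 4.63 ± 0.214 (SD, n = 3 each), which is 60.4% of the NC mean. The MACROH2A2 share of the sum was 13.7%, 13.9% and 12.2% in the NC and 22.7%, 24.1% and 22.3% in the siEIF1 libraries, so the groups did not overlap. The proteins of the pair, each of 372 residues in the canonical transcripts, are identical at 252 positions, and their transcripts share no run over 17 bases. MACROH2A1 is known to be spliced to alternative forms of its macro domain, which counts per gene do not separate.

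The linker histone gene H1-10 (ENSG00000184897.6), intronless and on the reverse strand at chr3:129314771-129316286, had an FPKM of 68.71, 72.91 and 74.55 in the NC and of 58.78, 55.62 and 54.07 in the siEIF1 libraries. The siEIF1 libraries were all lower, at 77.9% of the NC mean (log2 fold change -0.34, standard error 0.053, edgeR adjusted p = 5.62e-04). H1-10-AS1, which overlaps H1-10 on the opposite strand, had between 271 and 440 counts against 2963 to 3875 for H1-10. Among variant genes outside the 9, CENPA, the H3 variant of the centromere, went from an FPKM of 1.25 ± 0.280 to 0.400 ± 0.111 (SD, n = 3 each; log2 fold change -1.62, standard error 0.246, edgeR adjusted p = 4.56e-04). H3-5 and H2AP had at most 2 counts in a library.

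**Figure D3:**
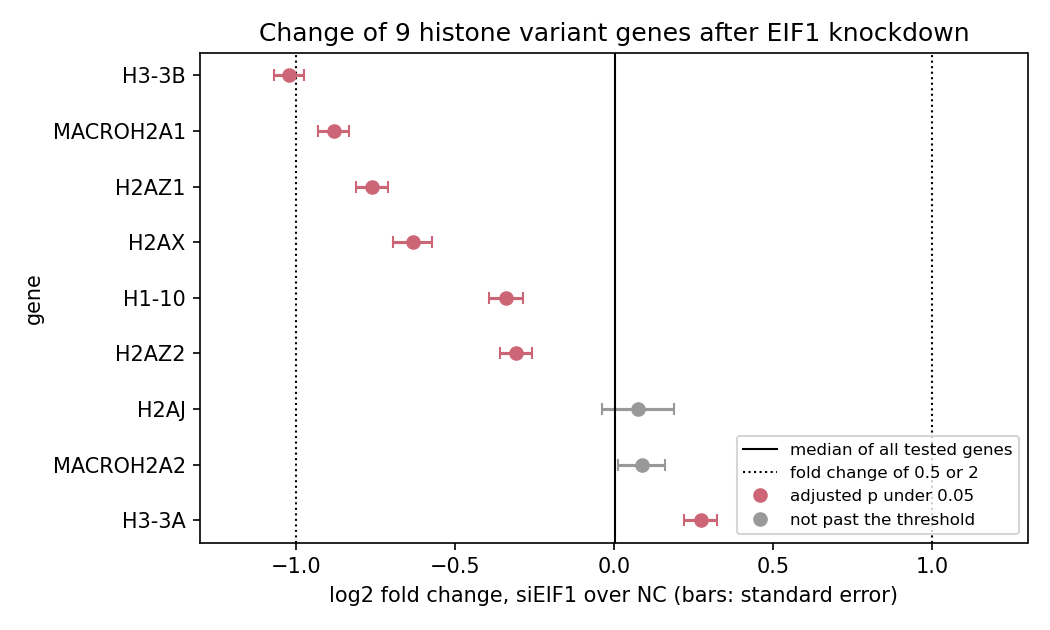
Log2 fold change of the 9 genes in the siEIF1 over the NC group, with bars for the standard error of edgeR's fit, red where the adjusted p was under 0.05. H3-3B at -1.02 lies at the dotted line of a fold change of 0.5, and H3-3A at 0.27 is the member in red to the right of 0.

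The order of the levels per length changed between the groups. In FPKM, the NC group had H2AZ1 (84.5 ± 3.73) above H3-3B (75.9 ± 0.493) and H1-10 (72.1 ± 3.01, SD, n = 3 each), followed by H3-3A, H2AX, H2AZ2, MACROH2A1, H2AJ and MACROH2A2. All NC libraries of H2AZ1 exceeded all of H3-3B, which in turn exceeded all of H1-10, and H3-3A exceeded H2AX in the same way. In the siEIF1 group H1-10 came first with 56.2 ± 2.40, followed by H2AZ1 with 49.2 ± 2.39 and H3-3B with 36.9 ± 0.728 (SD, n = 3 each), and the order of the other genes was as in the NC group. The length behind the FPKM matters for this order. CPM divided by FPKM gave 1.23 to 1.28 times the merged length of all annotated exons of a gene in GENCODE 44. This factor was 1.23 for H1-10, the member with the shortest merged length, and also for the long MACROH2A2. It was 1.24 for H2AX and highest, at 1.28, for MACROH2A1, the member with the longest merged length. FPKM is scaled to all mapped fragments and CPM to the gene counts, so the factor does not measure length alone. The merged length exceeds the canonical transcript 8.87 times for MACROH2A1 but 1 time for the intronless H2AX and H1-10.

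With CPM per kilobase of the canonical transcript in place of FPKM, H2AZ1 was first in both groups, at 272 ± 11.2 and 158 ± 6.06 (SD, n = 3 each). On this scale H3-3B was second in the NC group at 212 ± 1.57, and in the siEIF1 group, at 102 ± 1.69, it came after H3-3A at 108 ± 4.16 (SD, n = 3 each). MACROH2A1 went from 75.7 ± 2.62 to 40.4 ± 1.87 (SD, n = 3 each) and so lay above H2AX and H2AZ2. The share of H3-3B in the H3.3 pair went from 70.0% to 48.7% on this scale. This measure was chosen after the data were seen.

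The genes that handle these variants were counted by the same rule, beside 10.4% lower and 10.2% higher over all tested genes. Of 8 genes for H3.3 deposition, 1 fell, 1 rose and 6 did not pass the threshold, counts that are close to those shares, and the median log2 fold change was -0.018. The gene that fell was DEK, a chromatin protein and H3.3 chaperone (log2 fold change -0.28, edgeR adjusted p = 0.00145). ATRX, the remodeller that places H3.3 in heterochromatin together with DAXX, rose (0.29, edgeR adjusted p = 0.00876). The call of ATRX was lost with limma on log2(FPKM + 1) and log2(FPKM + 0.1), with adjusted p = 0.203 and 0.190. UBN2, a subunit of the HIRA complex, had a log2 fold change of 0.20 (edgeR adjusted p = 0.119). The other 5, namely HIRA, UBN1, CABIN1, ASF1A and DAXX, had log2 fold changes between -0.12 and 0.06.

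Of 12 genes for H2A.Z deposition and removal, 3 fell, 0 rose and 9 did not pass (10.4% of all tested genes fell and 10.2% rose), with a median of 0.0023. ANP32E, the chaperone that takes H2A.Z out of nucleosomes, had the smallest p (log2 fold change -0.40, edgeR adjusted p = 9.02e-04), and its FPKM went from 10.79, 12.78 and 12.20 in the NC to 9.13, 8.46 and 9.24 in the siEIF1 libraries. RUVBL1 and ACTL6A, subunits of several remodelling complexes, fell as well (log2 fold changes -0.17 and -0.26). Both calls were lost in the limma fits and without any one of NC replicates 1 and 3 and siEIF1 replicates 2 and 3, with adjusted p between 0.0513 and 0.149, and that of RUVBL1 also without siEIF1 replicate 1. SRCAP, the ATPase that exchanges H2A for H2A.Z, had a log2 fold change of 0.15 with a standard error of 0.131.

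Of 13 genes that supply histones during replication, 8 fell, 0 rose and 5 did not pass, with a median of -0.34, where 10.4% of all tested genes fell. ASF1B, the replication-linked paralog of ASF1A, went from an FPKM of 5.28, 5.14 and 4.68 in the NC to 1.25, 1.57 and 1.38 in the siEIF1 libraries. Its groups were far apart, and it was the member of this list with a fold change below 0.5 (log2 fold change -1.82, standard error 0.118, edgeR adjusted p = 5.97e-07). CHAF1A, the large subunit of the CAF-1 chaperone, fell as well (log2 fold change -0.98, edgeR adjusted p = 2.95e-06), as did MMS22L, a partner of TONSL at replication forks (-0.85, edgeR adjusted p = 7.86e-05). The calls of HAT1 and TONSL, which also fell, were lost in both limma fits (limma adjusted p from 0.0534 to 0.0842).

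Of 8 general histone chaperones, 2 fell, 0 rose and 6 did not pass, with a median of -0.031, again beside 10.4% and 10.2% of all tested genes. SUPT16H, a subunit of FACT, had a log2 fold change of -0.18 and NAP1L4 of -0.17, while NCL did not pass (-0.08, edgeR adjusted p = 0.341). The call of SUPT16H was lost without siEIF1 replicate 2 (edgeR adjusted p = 0.0502), and that of NAP1L4 in both limma fits and without any one of NC replicates 1 and 3 and siEIF1 replicates 1 and 2 (adjusted p from 0.0634 to 0.0788). Of 11 tested genes of H2AX signalling, 3 fell, 0 rose and 8 did not pass, with a median of -0.00051, beside the same shares of all tested genes. They were EYA4, of a family of phosphatases that act on H2AX (log2 fold change -0.51, edgeR adjusted p = 7.81e-04), MDC1, the protein that binds phosphorylated H2AX (-0.35, edgeR adjusted p = 0.00915), and the kinase gene ATR (-0.27, edgeR adjusted p = 0.0127). All 3 calls were lost in both limma fits, with adjusted p between 0.0523 and 0.243, and that of ATR also without NC replicate 1 and without siEIF1 replicate 2 (edgeR adjusted p = 0.0563 and 0.0639).

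All 6 proliferation markers fell, where 10.4% of all tested genes fell, with a median log2 fold change of -1.28. CDK1 (-1.66), MKI67 (-1.60), TOP2A (-1.54) and CCNB1 (-1.01) had fold changes below 0.5, and CCNA2 (-0.94) and PCNA (-0.28) did not reach it. The 6 members that fell had log2 fold changes from -1.02 to -0.31. With only the NC and siEIF1 groups, genes that fall must do so in the same libraries, so nothing is read from that. The part of a change in cell cycle phase in the values of the histone variants was not tested.

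**Figure D4:**
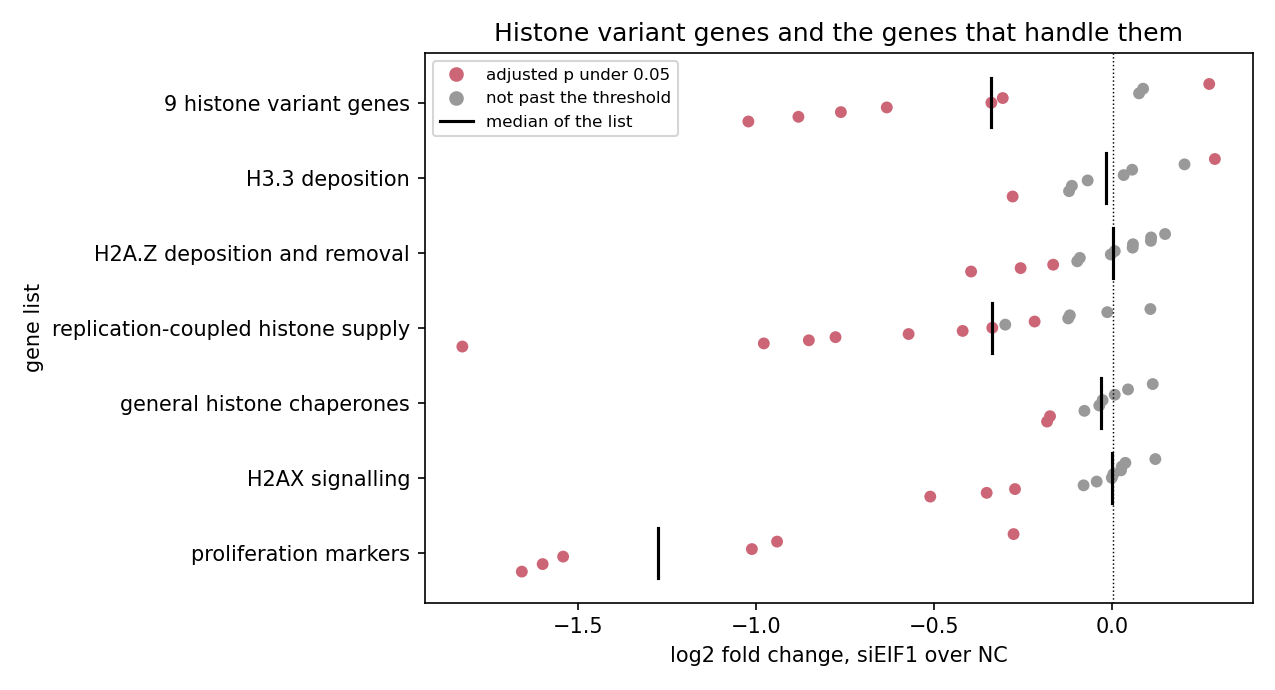
Log2 fold change (siEIF1 over NC) of every tested gene of 7 lists, with 1 point per gene, red where the adjusted p was under 0.05, a black bar for the median of a list and a dotted line for the median of all tested genes. The 9 histone variant genes have a median of -0.34, the 13 genes of replication-coupled histone supply also -0.34, and the genes for H3.3 and H2A.Z deposition lie around 0.

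The promoters of the 9 genes were compared with all 35116 RefSeq promoter windows (GRCh38.p14), each from 250 bases before to 50 after a start site. For H3-3A and MACROH2A1, which have several windows, the one at the start of the canonical transcript was taken. The CCAAT box, the site of NF-Y, was searched as CCAAT on both strands. At least 1 CCAAT box was found in 6 of the 9 windows, and in 34.6% of all windows. At least 3 were found in 5 of the 9 (4 each in H3-3B, H2AZ2 and H2AX, 3 each in H2AZ1 and H2AJ), and in 3.26% of all windows. The window of H3-3A held 1, and those of MACROH2A1, MACROH2A2 and H1-10 held 0. The windows with 3 or more thus belong to 4 genes that fell and to H2AJ, which did not pass the threshold, and MACROH2A1 and H1-10, whose windows held none, also fell. The cut of at least 3 boxes was not part of the planned comparison, which was of any match, so nothing is read from its share.

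The 4 boxes of H3-3B, the member with the largest fold change, and the 3 of H2AZ1 are shown with their neighbouring bases and with the match in capitals (CCAAT, or ATTGG where it lies on the other strand). Positions count from the start site, and both promoters lie on the reverse strand.
H3-3B at -216, chr17:75779978-75780007: ctttgcatccatCCAATcattaggccactt
H3-3B at -192, chr17:75779954-75779983: ccactttaacagCCAATcagcggcgtagat
H3-3B at -169, chr17:75779931-75779960: cgtagatatgcaCCAATcatggaacagtgc
H3-3B at -99, chr17:75779861-75779890: cgaaagcgcccaCCAATagaaaaagtcgtt
H2AZ1 at -182, chr4:99950440-99950469: tccccccacgccCCAATcgcggcttgagat
H2AZ1 at -125, chr4:99950383-99950412: cttcgcttgctcATTGGctgaagtctcaag
H2AZ1 at -80, chr4:99950338-99950367: cgggtggcagccATTGGtgggatgagcaat

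The cell cycle homology region, an element of genes repressed by the DREAM complex in resting cells, was searched as TTTGAA and TTCGAA on both strands. A match was found in 3 of the 9 windows, those of H2AZ1, H2AZ2 and H2AX, and in 16.4% of all windows. All 3 genes fell, as did H3-3B, MACROH2A1 and H1-10, whose windows held 0 matches. The match of H2AZ1 lies 5 bases after the start site, where such elements are usually found, and is shown with the match in capitals.
H2AZ1 at 5, chr4:99950254-99950283: gagacagcgcagTTTGAAtcgcggtgcgac

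The matches of H2AZ2 and H2AX lie at -50 and -164. The E2F site, searched as TTTCCCGC, TTTGGCGC, TTTCGCGC and TTTGCCGC on both strands, was found in 0 of the 9 windows and in 3.31% of all windows. A match describes the letters of a window, and binding was not measured in these libraries.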

How the data were processed

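RNA-seq of 6 ARPE-19 libraries (3 NC, 3 siEIF1) was analysed. Per the labels, reads were trimmed with FASTX-Toolkit 0.0.13 and aligned to GRCh38 with HISAT2. The authors deposited raw counts per gene, taken from reads that mapped to 1 place, and FPKM values. The study's methods describe strand-specific libraries. The counting program, its strand setting and the annotation release are not given in the sources used here. Every column was assigned to a library by its title, and 0 were left unmatched.

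Low counts were removed with filterByExpr, and the whole table was fitted with edgeR 4.0.16 in R 4.3.3, with TMM factors, the quasi-likelihood test and p-values adjusted after Benjamini and Hochberg. Adjusted p-values cover all 16749 tested genes, and the standard error came from the F statistic. DESeq2 1.42.0 and limma 3.58.1 on log2(FPKM + 1) and log2(FPKM + 0.1) were alternatives, with other normalizations and filters, the replicate block and leaving out each library. Annotation came from GENCODE 44, whose identifiers (without version) matched 99.7% of the genes, and promoters from RefSeq. On simulated counts with 200 genes altered, edgeR recovered 186 with 1 false call among 16565 genes. These numbers describe the simulated counts only. Whether they hold for the measured counts and for changes of the sizes reported here was not tested.

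The members and gene lists were chosen with earlier results of these data known. Named are all members, EIF1, GAPDH, tested other variants (except for an item that is not reported here), and of each list the 3 genes with the smallest p and those past a fold change of 2. Others are named to complete a list or as markers, after their values were seen. Protein sequences were not used here.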

Additional observations from a re-analysis of the deposited data

How the results depend on the processing

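The 9 genes had 126 values in 14 alternative fits, and 125 kept their direction and their side of the threshold. The exception was H2AJ, whose log2 fold change was -0.016 without NC replicate 2, and at most 0.17 with another library left out (without NC replicate 1). EIF1 stayed between -3.61 and -3.55, and with each library left out between -3.61 and -3.56. With each library left out, the number of members was 6 lower and 1 higher throughout. With a fold change above 2 or below 0.5 required, 1 was lower and 0 were higher, and of the tested genes of the 5 handling lists (H3.3, H2A.Z, replication, general chaperones, H2AX signalling) 1 was lower and 0 were higher. Of these genes, 17 were lower and 1 higher by the adjusted p alone. With limma on log2(FPKM + 1) and on log2(FPKM + 0.1), 9 were lower and 0 higher. With each library left out, 12 to 17 were lower and 1 to 5 higher, and the 5 were found without siEIF1 replicate 1. The H3-3B share changed by -18.6 percentage points in FPKM, by -14.9 in CPM and by -21.2 per canonical transcript length. The H2AZ2 share changed by 3.61 points in FPKM, 6.83 in CPM and 3.29 per canonical transcript length. The MACROH2A2 share changed by 9.79 points in FPKM, 8.74 in CPM and 8.70 per canonical transcript length. With each library left out, the changes ranged from -19.0 to -18.1, from 3.29 to 3.95 and from 9.25 to 10.1 points.

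Same-numbered libraries had deviations from their group means that correlated at 0.095 to 0.149 over 3 pairs, which did not pass 0.1 in every pair, so the numbers were not taken to pair the samples, although every library correlated best with its own number. With the replicate block, 4277 genes had an adjusted p under 0.05 in place of 3446, 19 genes of the handling lists were lower and 1 was higher, and 6 members were lower and 1 higher. The mean of same-numbered differences in the shares equals the difference of the group means by construction. It therefore had to give the same -18.6, 3.61 and 9.79 points, and it does not test the pairing. With limma on log2(FPKM + 1), 1016 genes were lower and 732 higher, against 1744 and 1702 in edgeR. Members with few counts, such as H2AJ, have wider errors.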
